A study of Mus musculus with 7 samples.

Results

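Gadd45a, Ddit4, Sesn1 and Aen are 4 genes that cells switch on under DNA damage and other stress, and all are known targets of the transcription factor p53. They were followed through every probe set of the array that is annotated to exactly one of these symbols. That gave 8 probe sets of 16255 tested, namely 1 for Gadd45a, 1 for Ddit4, 4 for Sesn1 and 2 for Aen, among 8378 genes in all. All 8 had a Present or Marginal detection call on every array, because the deposited values hold only such probe sets.

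The arrays (Affymetrix Mouse430_2) measured bone marrow cells of mouse bone marrow transplant recipients. In the mock group (3 arrays) the transplanted marrow expressed a control transgene, and in the ABCG2 group (2 arrays) it expressed ABCG2, a drug efflux pump. The other 2 arrays came from marrow carrying EZH2-Mt, a form of the histone methyltransferase EZH2, from a recipient or recipients that the labels call MDS-like. Both fractions are also labelled as controls. EZH2-Mt marrow was sorted on green fluorescent protein into a GFP-positive and a GFP-negative fraction of 1 array each, while mock and ABCG2 marrow was not sorted. The sources used here do not give what GFP marks, the promoter of the transgenes, the strain or age of the mice, or the share of recipient cells left in the marrow. No label numbers the mice, and p-values therefore cover the spread between arrays, which may be technical.

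p53 is held low by the ubiquitin ligase MDM2 and is stabilised by the kinases ATM, ATR, CHK1 and CHK2 after DNA damage, after which it raises transcription of genes for cell cycle arrest, repair and death. GADD45A is a small protein that binds the kinase MAP3K4 and activates p38 and JNK signalling. DDIT4 (REDD1) and sestrin 1 restrain the growth kinase complex mTORC1, DDIT4 through the TSC1-TSC2 complex and sestrin 1 through the GATOR complexes. AEN is a nuclease that takes part in apoptosis. In blood cells Gadd45a, Ddit4 and Sesn1 also answer to other inputs, among them cytokines, glucocorticoids, hypoxia and the FoxO factors.

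The sequences before the start sites are shown because 3 of the genes moved together and the fourth moved the other way on the same arrays. RefSeq promoter windows of assembly GRCm38.p6 matched all 4 genes, with 2 start sites each for Sesn1 and Aen. The 250 bases before a start are printed 5′ to 3′ in the direction of transcription. Capitals mark CCAAT boxes, read as CCAAT or, on the other strand, ATTGG, and the longer p53 half-sites.
Gadd45a, chr6:67037408-67037657, minus strand: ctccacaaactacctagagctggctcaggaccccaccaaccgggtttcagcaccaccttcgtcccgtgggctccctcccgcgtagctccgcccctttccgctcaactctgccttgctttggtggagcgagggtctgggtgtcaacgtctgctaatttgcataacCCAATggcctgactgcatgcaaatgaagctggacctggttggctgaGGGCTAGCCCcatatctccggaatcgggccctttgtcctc
Ddit4, chr10:59951771-59952020, minus strand: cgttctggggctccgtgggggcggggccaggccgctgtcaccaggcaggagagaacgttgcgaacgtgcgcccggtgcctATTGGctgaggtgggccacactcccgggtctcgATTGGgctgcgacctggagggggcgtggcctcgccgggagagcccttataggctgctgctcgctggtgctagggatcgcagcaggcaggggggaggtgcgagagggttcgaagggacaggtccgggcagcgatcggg
Sesn1, chr10:41810324-41810573, plus strand: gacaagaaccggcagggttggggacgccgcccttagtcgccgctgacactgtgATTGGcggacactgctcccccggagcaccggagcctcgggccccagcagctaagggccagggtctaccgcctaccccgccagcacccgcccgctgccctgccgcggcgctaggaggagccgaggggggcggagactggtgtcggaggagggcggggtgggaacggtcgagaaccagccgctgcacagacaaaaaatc
Sesn1, chr10:41887189-41887438, plus strand: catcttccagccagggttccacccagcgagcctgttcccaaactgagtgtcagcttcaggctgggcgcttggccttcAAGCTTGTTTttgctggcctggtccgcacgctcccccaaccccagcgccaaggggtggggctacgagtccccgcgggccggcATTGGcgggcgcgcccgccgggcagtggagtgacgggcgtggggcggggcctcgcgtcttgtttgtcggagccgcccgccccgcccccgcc
Aen, chr7:78895677-78895926, plus strand: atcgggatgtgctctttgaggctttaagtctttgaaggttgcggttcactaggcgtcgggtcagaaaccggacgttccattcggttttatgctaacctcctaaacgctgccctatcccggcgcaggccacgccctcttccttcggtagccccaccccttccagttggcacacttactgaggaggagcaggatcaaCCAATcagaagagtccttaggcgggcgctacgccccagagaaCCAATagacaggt
Every window of the 4 genes held a CCAAT box, which 33.8% of 32817 windows of the same length hold. It began 86 bases before the start in Gadd45a, 170 and 137 in Ddit4, 197 and 91 at the first and second Sesn1 start, and 55 and 13 at the Aen start shown. GC content was 59.2% for Gadd45a, 70.0% for Ddit4, 70.0% and 71.2% for Sesn1 and 55.6% for Aen, against a median of 52.4% over all windows. The p53 half-site had 1 match in the Gadd45a window, 40 bases before the start, 1 in the second Sesn1 window, 173 bases before it, and 0 in the windows of Ddit4, of the first Sesn1 start and of the Aen start shown. The second Aen window, not shown because it runs past the first start, held 1. Of all windows, 7.12% hold such a half-site. The GC box GGGCGG had 4 matches at each Sesn1 start, some overlapping at the second, and 1 each for Gadd45a and Ddit4 (32.7% of all windows hold it). For Aen it had 0 in the window shown and 1 in the second window. The hypoxia element core ACGTG had 1 match in the Ddit4 window, 0 for Gadd45a and Sesn1, and 2 that overlap each other in the second Aen window (16.6% of windows). The half-site TGACG of cyclic AMP elements had 1 match, at the second Sesn1 start (17.7%). The FoxO element TGTTTAC (3.16%) and the TATA box TATAAA (12.4%) had 0 matches in the windows of these genes. Both strands were searched, matches of different motifs did not overlap, and a match is a run of letters and not a shown binding site.

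Values below are log2 signals as deposited, centred so that each probe set has a median of 0 over the 7 arrays. The base is not stated and was taken as 2, and with natural logs every fold change would be larger than given. The values carry no absolute level, so no gene's level was set against another's. The SD over all probe sets was 0.33 to 0.42 on mock arrays, 0.41 on the GFP-negative, 0.54 on the GFP-positive and 1.06 and 1.13 on the ABCG2 arrays, which therefore stand apart from the rest. A tag in both ABCG2 titles, absent from the rest, has no stated meaning, and if it marks a batch, batch and ABCG2 cannot be told apart. Probe sets for the spiked bioC, bioD and cre control RNAs lay from -0.36 to 0.20 on mock, -0.76 to 0 on ABCG2, 0.61 to 1.09 on GFP-negative and 1.66 to 2.48 on GFP-positive arrays. Those for the spike bioB lay from -4.07 to -2.87 on the ABCG2 arrays, against -0.48 to 0.17 on mock. The 3′ minus 5′ signal, a sign of RNA quality, was taken from centred values, so it compares arrays only and a value near 0 does not show intact RNA. For beta-actin the 3′ minus 5′ signal was -0.05 to 0.04 on mock arrays, 0.14 and 0.31 on the GFP-negative and GFP-positive arrays, and 0.40 and 0.42 on ABCG2 arrays. For Gapdh it was -0.08 to 0.10 on mock and -0.11 and -0.08 on ABCG2 arrays, with 0.09 in the GFP-negative and 0.35 in the GFP-positive fraction. The part of these technical differences in the results below was not tested.

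**Figure D1:**
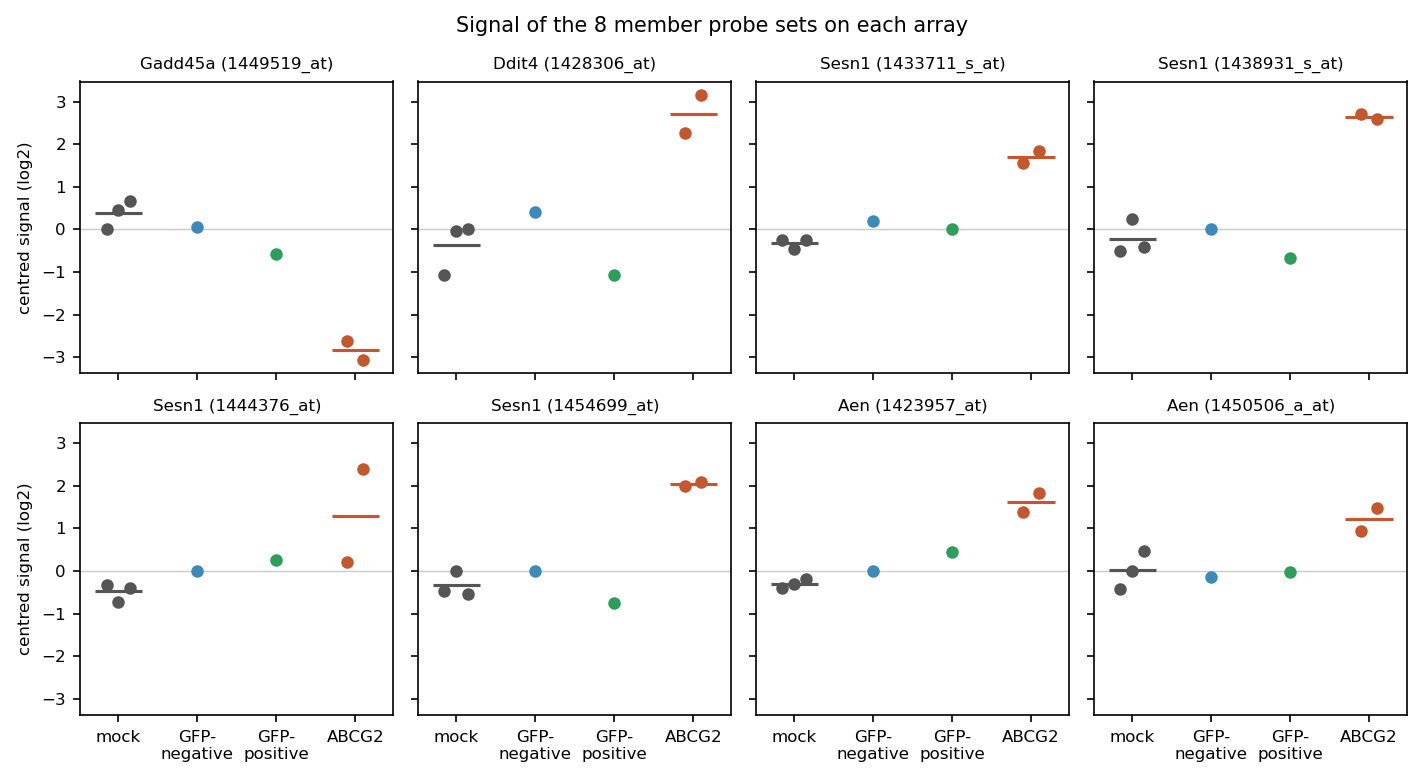
Centred log2 signal (vertical axis) of each of the 8 probe sets on the 3 mock, 1 GFP-negative, 1 GFP-positive and 2 ABCG2 arrays; points are arrays and bars are means of the mock and ABCG2 groups. Gadd45a is lowest on both ABCG2 arrays (-2.61 and -3.07), while Ddit4, Aen and 3 of the 4 Sesn1 probe sets are highest there.

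Against mock marrow, ABCG2 marrow had less Gadd45a (-3.21 log2) and more Ddit4 (3.08), Sesn1 (1.78 to 2.88 over 4 probe sets) and Aen (1.19 and 1.91), with 2 arrays against 3. All 8 passed limma's test at an adjusted p under 0.05. Over all probe sets in the same fit 56.8% passed, 31.5% as rises and 25.3% as falls, so passing is not particular to these genes. All 8 also differed by 2-fold or more, which 16.1% of all probe sets did as called rises and 15% as called falls. In 7 of the 8 probe sets both ABCG2 arrays lay outside all 5 other arrays. Over all probe sets 31.3% had both ABCG2 arrays above the other 5 and 27.5% had both below. The histogram of all differences shows how many probe sets lay as far out as each gene.

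**Figure D2:**
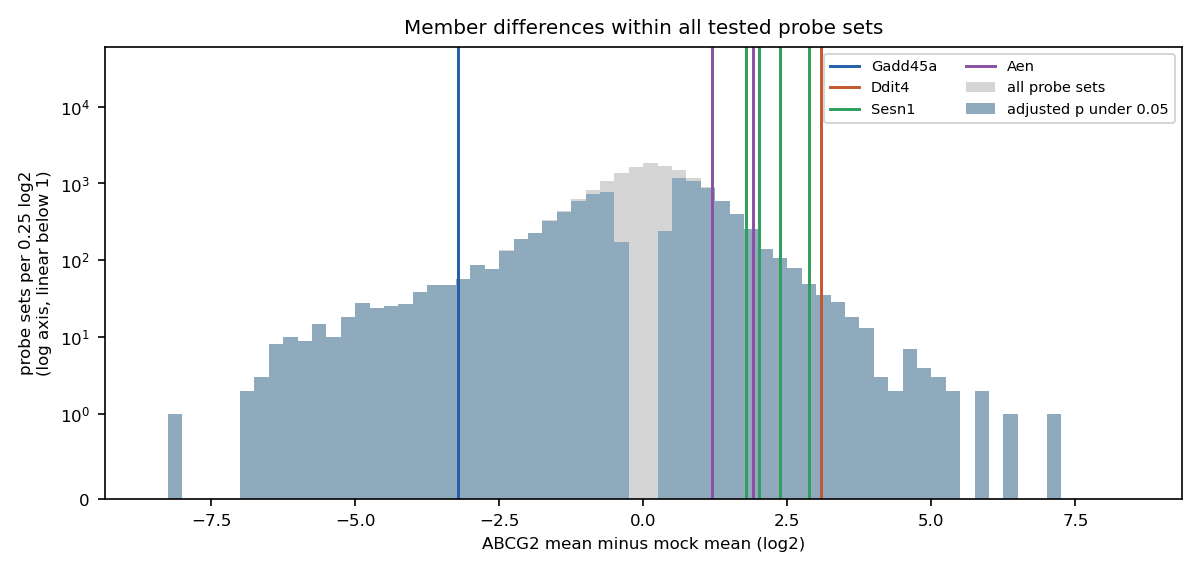
Number of probe sets (log axis, linear below 1) by ABCG2 minus mock difference in log2, for all 16255 tested (grey) and those with adjusted p under 0.05 (blue), with vertical lines at the member probe sets. Gadd45a lies in the lower tail at -3.21 and Ddit4, Sesn1 and Aen in the upper tail from 1.19 to 3.08.

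Gadd45a, the activator of stress kinases, lay at 0, 0.45 and 0.67 on the mock arrays, at 0.05 in GFP-negative and -0.58 in GFP-positive cells, and at -2.61 and -3.07 on the ABCG2 arrays. Both ABCG2 values were far below the other 5, with a gap that exceeded the spread of each group. Gadd45a fell by 3.21 ± 0.25 log2 (SE, 9.25-fold, limma adjusted p = 0.000153). With quantile normalization the difference was smaller, at -2.16 (limma adjusted p = 0.00639). Of all probe sets, 320 or 1.97% had a difference as low or lower.

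Ddit4, the inhibitor of mTORC1, was at -1.07, -0.03 and 0 on the mock arrays and at 2.27 and 3.16 on the ABCG2 arrays. The GFP-negative fraction was at 0.40 and the GFP-positive at -1.08. The ABCG2 arrays were highest without overlap, and 1 mock array lay level with GFP-positive cells, well under the other mock arrays. Ddit4 rose by 3.08 ± 0.41 log2 (8.44-fold, limma adjusted p = 0.00118). Only 108 probe sets, 0.664% of those tested, were as high or higher. The mock array that was low in Ddit4, replicate 1, was also the lowest mock array in Ppp1r15a (-2.03, others -0.84 and -0.83), Btg2 (-1.17, others -0.28 and 0.04) and Dusp1 (-1.61, others -0.39 and 0), stress and immediate early genes picked after their values were seen. Without that array the Ddit4 difference was 2.72. With all arrays kept and quantile normalization it was 2.24 (limma adjusted p = 0.0194).

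Sesn1, which encodes the amino acid sensor and mTORC1 inhibitor sestrin 1, rose in all 4 probe sets, by 1.78 to 2.88 log2. Probe set 1438931_s_at lay at -0.52, 0.24 and -0.42 on mock and at 2.70 and 2.58 on ABCG2 arrays, a rise of 2.88 ± 0.25 (7.34-fold, adjusted p = 0.000225). Probe set 1454699_at, at -0.46, 0 and -0.55 on mock and 2 and 2.08 on ABCG2 arrays, rose by 2.37 ± 0.20 (adjusted p = 0.000212). In 1433711_s_at mock lay at -0.24, -0.47 and -0.26 and ABCG2 at 1.56 and 1.83, a rise of 2.01 ± 0.16 (adjusted p = 0.000180). With quantile normalization the rises of these 3 probe sets, in the order given, were 1.94, 1.71 and 1.52. In these 3 the ABCG2 arrays differed from each other by 0.08 to 0.28, much less than from mock. The fourth, 1444376_at, did not repeat that agreement. Its mock values were -0.32, -0.72 and -0.40, and its ABCG2 values were 0.20 and 2.39, the lower of them under the GFP-positive value of 0.25. The rise of 1.78 ± 0.58 (adjusted p = 0.0383) was 2.87 without ABCG2 replicate 1 and 0.68 without ABCG2 replicate 2, and it no longer passed without mock replicate 1, 2 or 3 (adjusted p from 0.0823 to 0.102). The suffix _s_at marks a probe set whose probes may match more than 1 transcript, and the sources used here do not say which transcript each Sesn1 probe set reads.

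Aen, the apoptosis-enhancing nuclease, rose least. Probe set 1423957_at was at -0.41, -0.31 and -0.18 on mock arrays and 1.39 and 1.83 on ABCG2 arrays. The groups were well apart, and the rise was 1.91 ± 0.18 (3.75-fold, limma adjusted p = 0.000328). With quantile normalization that rise was 1.42 (limma adjusted p = 0.00459). Probe set 1450506_a_at was at -0.42, 0 and 0.47 on mock and 0.94 and 1.48 on ABCG2 arrays, a rise of 1.19 ± 0.30 (2.29-fold, adjusted p = 0.0137) against a mock range of 0.89. That call was lost without ABCG2 replicate 2 (0.92, adjusted p = 0.0668) and with quantile normalization (0.57, adjusted p = 0.344). Of all probe sets 3.57% were as high as the first and 11.8% as high as the second.

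**Figure D3:**
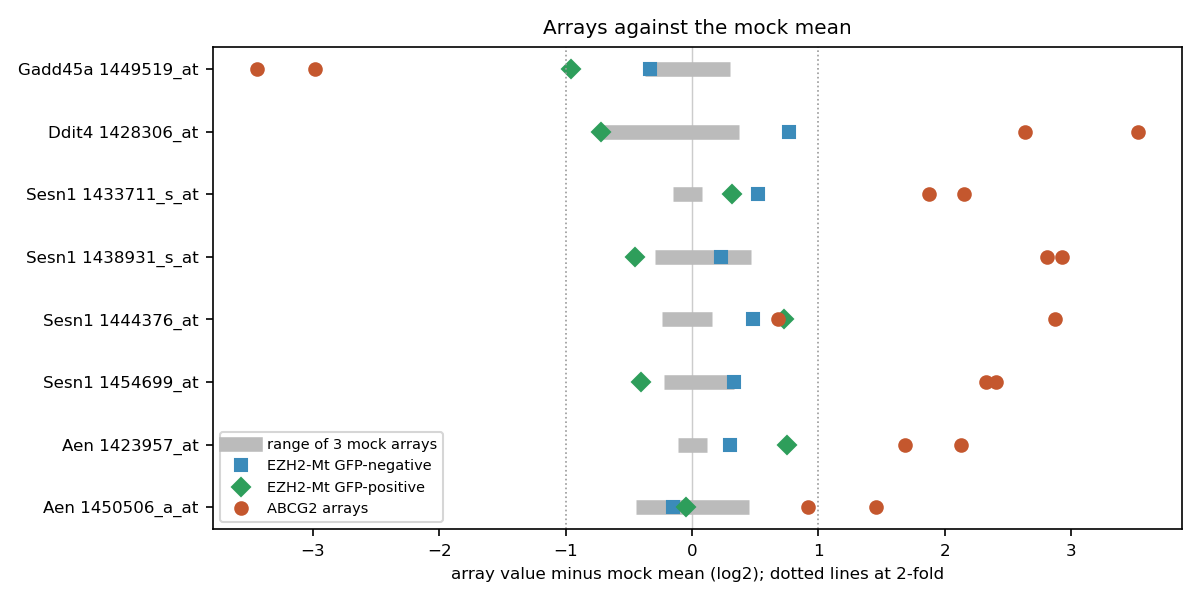
Each array's value minus the mock mean (log2, horizontal axis) for the 8 probe sets; grey bars span the 3 mock arrays, squares and diamonds are the EZH2-Mt fractions, circles the ABCG2 arrays, and dotted lines mark 2-fold. Both fractions stay within 2-fold of the mock mean throughout, and 1 ABCG2 array meets the GFP-positive value in Sesn1 1444376_at.

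In EZH2-Mt marrow the 4 genes stayed within 2-fold of the mock mean in both fractions, in 0 of 8 probe sets past that size. Over all probe sets 6.43% of differences reached 2-fold in the GFP-negative and 12.2% in the GFP-positive fraction. With 1 array each, neither fraction has a replicate check, and no p-value is given. Gadd45a was 0.96 below the mock mean in GFP-positive and 0.33 below it in GFP-negative cells, the former under all mock values and the latter among them. Aen lay above the mock arrays in 1423957_at, by 0.30 in GFP-negative and 0.75 in GFP-positive cells, but among them in 1450506_a_at (-0.15 and -0.05). The Sesn1 probe sets parted in GFP-positive cells: 1438931_s_at and 1454699_at were 0.45 and 0.40 below the mock mean, and 1433711_s_at and 1444376_at were 0.32 and 0.73 above it. In GFP-negative cells all 4 Sesn1 probe sets were 0.23 to 0.52 above the mock mean. GFP-negative cells lay above the 3 mock values in 4 of 8 probe sets and below them in 0 (39.1% and 30.8% over all probe sets), and GFP-positive cells above in 3 and below in 4 (43.4% and 33.6%). Without mock replicate 1 the GFP-positive differences of Gadd45a (-1.14) and Ddit4 (-1.07) passed 2-fold.

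Between the fractions, Ddit4 was the one gene that differed by 2-fold or more, lower by 1.49 log2 in GFP-positive (-1.08) than in GFP-negative cells (0.40). Of all probe sets 2.04% were lower by 2-fold or more in GFP-positive cells. In either direction 5.13% differed by that much between the fractions, against 2.07%, 2.52% and 0.671% between the pairs of mock arrays and 5.48% between the ABCG2 arrays. The other 7 probe sets differed by -0.74 to 0.45. Of 4 measured T and NK cell markers, 3 were lower by 2-fold or more in GFP-positive cells (1.34% of all genes), Klrd1 by 2.58, Cd3d by 1.36 and Cd28 by 1.08, and the fourth, Nkg7, was 0.31 higher. The mean of that list was 1.27 in GFP-negative and 0.09 in GFP-positive cells, -1.93 to -0.27 on mock and 0.30 and 0.54 on ABCG2 arrays, and its part in the Ddit4 values was not tested. Other marker lists differed between the fractions too: 6 of 7 erythroid genes (median 1.38), 3 of 7 B lineage, 3 of 13 neutrophil and 2 of 3 plasma cell genes were 2-fold or more higher in GFP-positive cells (1.77% of all genes), and 1 B lineage gene and 1 of 4 basophil, mast cell and eosinophil genes were lower. Their part was not tested either.

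The ABCG2 mean of Gadd45a was 2.57 log2 below the mean of the EZH2-Mt fractions, that of Ddit4 3.05 above, and those of the Sesn1 probe sets 1.17 to 2.98 and the Aen probe sets 1.29 and 1.39 above. These differences were not tested, and they share the ABCG2 arrays with the comparison to mock.

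The cell type markers of marrow moved with the ABCG2 group. All 13 measured neutrophil granule genes and 9 of 10 monocyte and macrophage genes fell, and 5 of 7 B lineage and 3 of 4 stem and progenitor genes rose (limma on gene means, 35.6% of 8378 genes higher and 26.2% lower). The mean of the neutrophil list lay from -0.22 to 0.05 on mock arrays, at 0.29 in GFP-negative, 1.01 in GFP-positive, and -3.92 and -5.53 on ABCG2 arrays. The B lineage mean lay from -1.37 to -0.55 on mock, at 0.10 and 0.63 in the GFP-negative and GFP-positive fractions, and at 2.58 and 3.05 on ABCG2 arrays. In GFP-negative cells Il7r alone of these 7 genes lay 2-fold or more above the mock mean, by 5.71 (list median 0.21). In GFP-positive cells 5 of 7 did (list median 1.22). In ABCG2 marrow all 5 megakaryocyte and platelet genes fell, as did 3 of 4 basophil, mast cell and eosinophil genes, while 2 of 3 plasma cell genes rose. Of 4 T and NK cell genes 2 rose and 1 fell, and of 7 erythroid genes 1 rose and 1 fell. The erythroid mean was highest in GFP-positive cells, at 2.23, against -1.12 to 0.33 on mock arrays. None of these markers can be called absent from a group, since every probe set in the table was detected on every array. With quantile normalization falls numbered 11 of 13 for neutrophils, 3 of 5 for megakaryocytes and 1 of 4 for the basophil, mast cell and eosinophil list (median of the last -2.86, against -5.25 as deposited), 1 of 3 plasma cell genes rose, and the T and NK and erythroid lists had 0 falls. In the fractions, where Gadd45a was 0.33 (GFP-negative) and 0.96 (GFP-positive) below the mock mean, monocyte and macrophage genes lay 2-fold or more below it in 8 and 7 of 10 (2.12% and 3.03% of all genes). Megakaryocyte and platelet genes did so in 2 and 3 of 5, while 0 and 9 of 13 neutrophil genes lay 2-fold or more above it (2.46% and 4.33% of all genes). Lyz2 of the monocyte list lay 1.09 above it in GFP-positive cells. Other lists moved as well. Above it by 2-fold or more were 4 and 6 of 7 erythroid, 3 and 2 of 4 T and NK cell and 2 and 0 of 4 basophil, mast cell and eosinophil genes. Below it by that much were 3 and 0 of 3 plasma cell genes. In such bulk samples fewer cells of a type and less RNA per cell cannot be told apart, and the part of cell makeup in these results was not tested.

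**Figure D4:**
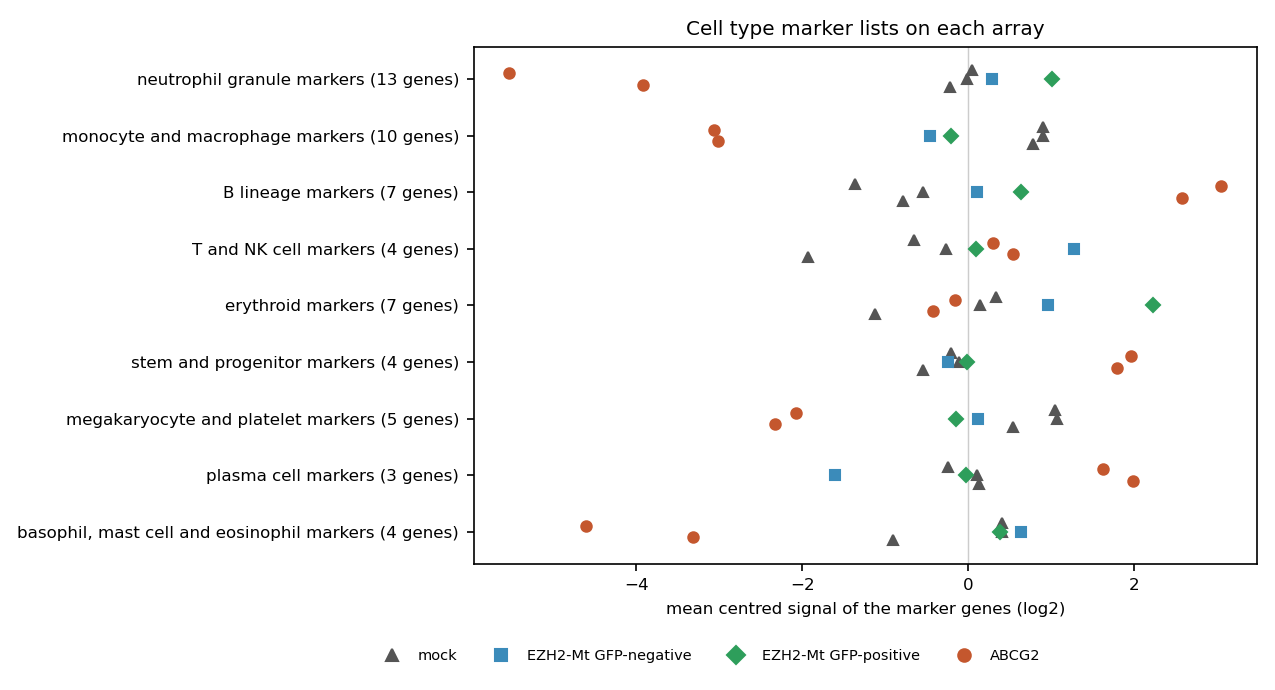
Mean centred log2 signal (horizontal axis) of each cell type marker list on each array, with the number of measured genes in brackets. Neutrophil, monocyte, megakaryocyte and basophil lists are lowest and B lineage, stem and progenitor and plasma cell lists highest on the ABCG2 arrays.

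Of 7 measured relatives of the 4 genes, with the binding partner Gadd45gip1 counted among them, 4 rose and 2 fell (median 0.73). Over all genes 35.6% rose and 26.2% fell (median 0.15), and the list counts below are to be read beside these shares. Gadd45g, of the same stress sensor family as Gadd45a, fell by 1.85 ± 0.23, with 0.26, 0 and 0.41 on mock and -1.95 and -1.32 on ABCG2 arrays (limma on gene means, adjusted p = 0.000665). Gadd45b, the third of that family, fell by 0.85 ± 0.23 (adjusted p = 0.0175), a call lost without ABCG2 replicate 2 (-0.51, adjusted p = 0.0721) and without mock replicate 2 or 3 (adjusted p = 0.0609 and 0.0520). Gadd45gip1, which encodes a mitochondrial ribosome protein that binds GADD45 proteins, rose by 1.42 ± 0.18, though not with quantile normalization (0.64, adjusted p = 0.132). The sestrin gene Sesn3 rose by 2.18 ± 0.24 (adjusted p = 0.000448), from -0.25, 0 and -0.66 on mock to 2.12 and 1.63 on ABCG2 arrays. Among nucleases of the same family as AEN, Isg20l2 rose by 1.42 ± 0.14 and Rexo4 by 0.73 ± 0.13, the latter not with quantile normalization (0.36, adjusted p = 0.135), while Isg20 was at -0.19 ± 0.19 (adjusted p = 0.417). Sesn2 and Ddit4l were not analysed here.

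Genes that control p53 moved both ways. Of 17 measured, 7 rose and 4 fell, with a median of 0.14, where 35.6% of all genes rose and 26.2% fell. The falls numbered 2 with quantile normalization, without ABCG2 replicate 2 and without any 1 mock replicate, where Ep300 (-0.54) and Nbn (-0.41) lost their calls. The damage kinase genes Atm (2.13 ± 0.19), Atr (1.06 ± 0.15), Chek1 (1.13 ± 0.14) and Chek2 (0.82 ± 0.20) all rose, as did Trp53bp1 (1.96 ± 0.19), a reader of chromatin at DNA breaks, and the break sensor genes Mre11a (1.17 ± 0.14) and Rad50 (0.82 ± 0.16, adjusted p = 0.0892 with quantile normalization). Mdm2 fell by 1.33 ± 0.18, and Hipk2, a kinase that phosphorylates p53, fell by 3.30 ± 0.14 to -3.37 and -3.20 on ABCG2 arrays (-1.75 with quantile normalization). In EZH2-Mt marrow Hipk2 moved the other way, to 1.21 in GFP-negative and 1.26 in GFP-positive cells against -0.09 to 0.14 on mock arrays. Chek2 too lay 2-fold or more above the mock mean in both fractions, by 1.01 (GFP-negative, 0.92 without mock replicate 1) and 1.34 (GFP-positive). Over all genes 2.46% (GFP-negative) and 4.33% (GFP-positive) lay that far above it. Mdm4 (0.14) and Ppm1d (0.32), other brakes on p53, did not pass, though Ppm1d did without ABCG2 replicate 2 (0.65, adjusted p = 0.0372). Trp53 itself was not analysed here.

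Of 16 other p53 targets measured, 3 rose, 3 fell and 10 did not pass (median -0.01), where 35.6% of all genes rose and 26.2% fell. The rises were in the DNA repair genes Ddb2 (1.87 ± 0.14) and Ercc5 (0.93 ± 0.12) and in Ei24 (0.71 ± 0.13). The falls were in the repair gene Xpc (-1.05 ± 0.16, not passing with quantile normalization, adjusted p = 0.0520), the apoptosome gene Apaf1 (-0.77 ± 0.17, likewise adjusted p = 0.110) and Trp53inp1 (-0.77 ± 0.25). The call of Trp53inp1 was also lost with quantile normalization and without 1 of 4 arrays (adjusted p from 0.0502 to 0.135). Ccng1 (0.14), the death gene Bbc3 (-0.15) and Pmaip1 (-0.41) did not pass, though Pmaip1 did without mock replicate 1 (-0.61, adjusted p = 0.0234). Past 2-fold from the mock mean in GFP-negative cells were Perp (2.47) and Ddb2 (1.26). In GFP-positive cells they were Perp (1.58) and Pmaip1 (-1.10, and -0.94 without mock replicate 3). Over all genes 2.46% (GFP-negative) and 4.33% (GFP-positive) lay that far above and 2.12% and 3.03% that far below. Cdkn1a, the gene of the cell cycle inhibitor p21, was named after its values were seen, because the ABCG2 arrays opposed each other. It was at -0.15, 0.31 and 0.14 on mock arrays, 2.13 on ABCG2 replicate 1 and -1.27 on ABCG2 replicate 2, and both of its probe sets showed that split (2.05 against -1.06, and 2.22 against -1.49). Its mean difference was 0.33 ± 0.88 (adjusted p = 0.763), 2.03 without ABCG2 replicate 2 and -1.38 without ABCG2 replicate 1.

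**Figure D5:**
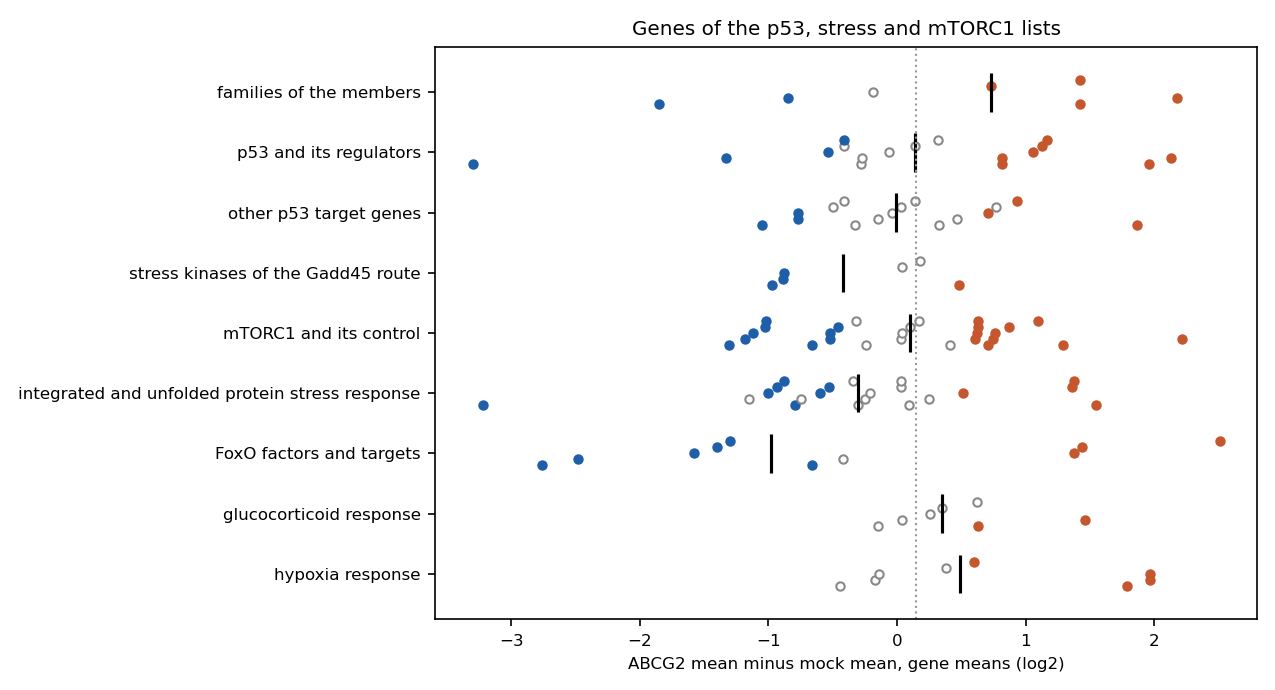
ABCG2 minus mock difference (log2, horizontal axis) of each measured gene of 9 pathway lists, the 4 genes themselves left out; filled points passed limma's test (red higher, blue lower), open points did not, black bars are list medians and the dotted line is the median of all genes, 0.15. Each of the 9 lists has genes on both sides of 0, with medians from -0.98 for FoxO factors and targets to 0.73 for relatives of the members. The relatives include Gadd45gip1, a binding partner of GADD45 proteins.

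Downstream of GADD45 proteins, 3 of 6 stress kinase genes fell and 1 rose (median -0.42), where 26.2% of all genes fell and 35.6% rose. The p38 gene Mapk14 (-0.88 ± 0.13) and the upstream kinase genes Map2k3 (-0.89 ± 0.18) and Map2k4 (-0.97 ± 0.13) fell, and the JNK1 gene Mapk8 rose by 0.48 ± 0.14. With quantile normalization Map2k4 alone of these 4 passed (adjusted p from 0.0638 to 0.511 for the others), and the Mapk8 call was also lost without ABCG2 replicate 1 or mock replicate 3.

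In mTORC1 and its control, on which DDIT4 and sestrins act, 11 of 27 genes rose and 9 fell (median 0.10). These counts were not far from the shares over all genes, 35.6% higher and 26.2% lower. With quantile normalization 4 rose and 5 fell, and the calls of Tsc2, Mios, Wdr24, Lamtor2, Lamtor3 and Stk11 below were also lost without 1 or more single arrays (adjusted p from 0.0503 to 0.224). Of the kinase complex, Mtor (0.71), Rptor (1.29 ± 0.28, adjusted p = 0.116 with quantile normalization), the inhibitory subunit genes Akt1s1 (1.10) and Deptor (2.22 ± 0.14) rose and Mlst8 (-1.12) fell. Tsc1 (0.75) and Tsc2 (0.76), whose products relay DDIT4, rose. Of the GATOR genes, on whose complexes sestrins act, Nprl2, Nprl3, Mios, Wdr24 and Seh1l rose by 0.61 to 0.87, while Depdc5 (0.03) and Sec13 (-0.24) did not pass. The Ragulator genes Lamtor1 to Lamtor4 fell by 0.46 to 1.18 and Lamtor5 was at 0.10. The AMPK subunit genes Prkab1 (-0.66) and Prkag1 (-1.02) fell, while the AMPK subunit gene Prkaa1 (0.04) did not pass. Stk11 (-0.52), the gene of a kinase that activates AMPK, fell too, as did Eif4ebp1 (-1.31 ± 0.15), which encodes a substrate of mTORC1.

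In the integrated stress and unfolded protein responses 4 of 21 genes rose and 7 fell (median -0.30). For this list and the FoxO list below, the shares over all genes were 35.6% higher and 26.2% lower. Asns, the asparagine synthetase induced when amino acids run short, fell by 3.22 ± 0.13 (-1.68 with quantile normalization), and Phgdh, of serine synthesis (1.55 ± 0.13), the amino acid sensor kinase gene Eif2ak4 (1.38 ± 0.15) and Ppp1r15a (1.36 ± 0.37), also called Gadd34, rose. The Ppp1r15a call was lost without ABCG2 replicate 2 (1.24, adjusted p = 0.0765), and its rise was 0.96 without mock replicate 1. The EZH2-Mt fractions lay 1.68 (GFP-negative) and 1.25 (GFP-positive) above the mock mean in Ppp1r15a, or 1.28 and 0.85 without mock replicate 1. Atf4 (0.03), Ddit3 (-0.75) and Atf3 (-1.15) did not pass. The ABCG2 arrays disagreed in Ddit3 (-0.01 and -1.10) and Atf3 (0.38 and -1.49): without ABCG2 replicate 1 both passed as falls, at -1.30 (adjusted p = 0.00135) and -2.08 (adjusted p = 0.00576), and without ABCG2 replicate 2 they were at -0.20 and -0.22. Of 10 FoxO factors and targets 3 rose and 6 fell (median -0.98), with 3 to 5 falls and 2 or 3 rises when 1 array was left out, fewest falls without mock replicate 2, and 2 rises and 4 falls with quantile normalization. Foxo1 rose by 2.51 ± 0.30, and Bcl6 (-2.76 ± 0.13), Txnip (-2.48 ± 0.44) and Klf2 (-1.58 ± 0.48) fell, Klf2 not with quantile normalization (adjusted p = 0.129) nor without mock replicate 2 or 3 (adjusted p = 0.0737 and 0.0768). Klf2 was -0.71 without ABCG2 replicate 1 and -2.45 without ABCG2 replicate 2, and Bcl6 was -1.78 with quantile normalization. The calls of Cited2, Cdkn1b and Bcl2l11 were also lost without 1 or more single arrays. In GFP-positive cells Bcl6 (-1.34), Txnip (-1.32) and Cdkn1b (-1.12) of that list lay 2-fold or more below the mock mean, as did 3.03% of all genes.

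Of the inputs known for Ddit4, 2 of 7 glucocorticoid response genes rose and 0 fell (median 0.35), Fkbp5 by 1.46 ± 0.20 and Sgk1 by 0.63 ± 0.15, with Sgk1 at an adjusted p of 0.0550 without ABCG2 replicate 2 and 0.137 with quantile normalization. The glucocorticoid-induced gene Tsc22d3 was at 0.35 and did not pass. In that list both fractions lay 2-fold or more above the mock mean in 2 genes (2.46% of all genes for GFP-negative, 4.33% for GFP-positive), Zfp36 (1.74 GFP-negative, 1.49 GFP-positive) and Dusp1 (1.57 and 1.36). Without mock replicate 1, left out after the values were seen, these were 1.45 and 1.20 for Zfp36 and 1.10 and 0.89 for Dusp1, so that 1 gene stayed past 2-fold in GFP-positive cells, and without mock replicate 2 or 3 there were 3. Of 8 hypoxia genes 4 rose and 0 fell (median 0.49): Pdk1 (1.97 ± 0.13), Egln3 (1.97 ± 0.18), Vegfa (1.79 ± 0.37) and Arnt (0.60 ± 0.18). Beside this and the glucocorticoid list, 35.6% of all genes rose and 26.2% fell in ABCG2 marrow. Vegfa was 1.14 without ABCG2 replicate 1 and 2.44 without ABCG2 replicate 2, and the glucose transporter gene Slc2a1 (-0.44) passed as a fall without ABCG2 replicate 1 (-0.91, adjusted p = 0.00557). Vegfa had an adjusted p of 0.0514 and Arnt of 0.0915 with quantile normalization, and Arnt also missed the threshold without ABCG2 replicate 1 or mock replicate 2 or 3 (adjusted p from 0.0831 to 0.128). Other genes named in these lists kept their call with quantile normalization at over 1.5 times smaller differences: Pdk1 (1.23), Phgdh (0.92), Eif2ak4 (0.91), Mre11a (0.77), Isg20l2 (0.76), Ercc5 (0.52), Map2k4 (-0.64) and Lamtor4 (-0.76).

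The genes whose centred values lay nearest to each of the 4 over the 7 arrays were found by the root mean square difference, as a description with no test. For Gadd45a these were Cd9 (0.22 log2), which encodes a tetraspanin, the histone demethylase gene Kdm7a (0.23) and the xanthine dehydrogenase gene Xdh (0.24), with differences of -3.29, -3.12 and -3.11. For Ddit4 they were Gpr18 (0.37), the phosphatase gene Dusp2 (0.38) and the kinase gene Fyn (0.38). Each was higher in GFP-negative than in GFP-positive cells, an order that the choice over all 7 arrays, both fractions included, favours. For Sesn1 (1438931_s_at) they were Dexi (0.18), the protein kinase C gene Prkch (0.19) and Nt5c3b (0.23), and for Aen (1423957_at) Niban3 (0.11), Rcn2 (0.13) and the importin gene Ipo4 (0.13). Within 0.5 log2 lay 26 probe sets for Ddit4, 164 for Gadd45a, 171 for Sesn1 and 1424 for Aen. A fixed distance takes in fewer probe sets where differences are larger, so these counts do not measure how common a pattern is.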

How the data were processed

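Deposited values are log2 signals made by the authors: per the file headers, probe sets were kept at raw signals from 3 to 120534 and a Present or Marginal flag in 100% of samples. MAS5 is named, without version, in the submitters' processing notes, and the scaling between arrays was not given in the sources used here. The log base is not stated and was taken as 2, since a range of 8.70 exceeds the 4.60 that base 10 allows; natural logs would allow 10.6. The value table equalled the single-array files (largest difference 0). After 54 control probe sets were set apart, 14229 of 16255 probe sets had 1 symbol in the platform annotation, 483 several and 1543 none.

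ABCG2 was compared with mock by limma 3.58.1 (R 4.3.3; lmFit, eBayes, two-sided, 3 residual and 3.46 prior degrees of freedom) over all probe sets, or over 8378 gene means for lists, p adjusted by Benjamini-Hochberg and called under 0.05, after the fit was tested on simulated data. Values after ± are standard errors. The number of arrays limits the precision. The EZH2-Mt fractions were described without a test. The members and lists were chosen with earlier results of these data known. From each list up to 4 genes with the largest passing differences were named, others were named by role with their values seen, and likeness took the 3 nearest genes. Alternatives were quantile normalization, median centring, array weights, a robust prior, all 7 arrays, kept controls, a range filter, a replicate block and each array left out.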

Additional observations from a re-analysis of the deposited data

How the results depend on the processing

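Of 104 differences of member probe sets under the alternatives, 98 kept direction and call, 6 kept direction without passing and 0 reversed. All 6 that lost their call were in Sesn1 1444376_at or Aen 1450506_a_at. The fit on all 7 arrays could not change a call, since groups of 1 array add no residual degrees of freedom. Median centring, kept controls and a robust prior left member differences almost unchanged, so 98 of 104 overstates the robustness. With quantile normalization, which sets the SD of every array to 0.60 by construction, 4462 probe sets passed (2112 higher, 2350 lower) against 9234 (5122 and 4112). Aen 1450506_a_at was then 0.57, and every member difference was smaller than as deposited, among them Gadd45a (-2.16) and Ddit4 (2.24). Leaving out probe sets whose range was under the median, and thus testing fewer, gave 3357 higher. With the replicate block Sesn1 1444376_at was 1.82 (adjusted p = 0.0898), and no other member call changed; with 2 shared numbers and no label that ties them to a mouse or day, the numbers are not known to pair arrays (correlations of deviations 0.08 and -0.04). When 1 array was left out, total calls ran from 7570 to 8442, Sesn1 1444376_at from 0.68 to 2.87 and Aen 1450506_a_at from 0.92 to 1.47. Member differences of an EZH2-Mt fraction from mock past 2-fold numbered 0, 3 with quantile normalization (Ddit4 in both fractions, Gadd45a in GFP-positive), and 0 to 2 with a mock array left out. The cause of these changes was not tested beyond what is stated. Detection on every array limits all values to expressed probe sets.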

Other observations

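The protein-coding genes next to each of the 4 by start in the RefSeq gene table did not share a direction with them throughout (limma on gene means, ABCG2 minus mock). Gng12, which encodes a G protein subunit and lies beside Gadd45a on chromosome 6, fell by 1.98 ± 0.14 (adjusted p = 7.49e-05), while Serbp1 on the other side rose by 0.69 ± 0.14 (adjusted p = 0.00514). Beside Ddit4 on chromosome 10, Anapc16, of the anaphase-promoting complex, rose by 1.45 ± 0.12 (adjusted p = 0.000158) and Dnajb12 was at -0.24 ± 0.21 (adjusted p = 0.338). Cep57l1 next to Sesn1 was at 0.65 ± 0.24 (adjusted p = 0.0538), and Armc2 was not analysed here. Beside Aen on chromosome 7, Det1 rose by 0.99 ± 0.15 (adjusted p = 0.00161), and Isg20, a nuclease gene of the same family, was at -0.19 ± 0.19 (adjusted p = 0.417).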
